A study of Drosophila melanogaster with 10 samples.

Results

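Cytochrome P450 enzymes of the CYP4 clan were followed in the Malpighian (renal) tubule of the adult fly. A gene was taken where its probe set named that gene alone and its symbol began with Cyp4 and a letter, or with Cyp311, Cyp312, Cyp313, Cyp316 or Cyp318. With the probe set of the highest mean signal kept for each gene, this gave 32 genes from 33 probe sets, of 10844 genes with such a probe set on the array. All 32 CYP4 clan genes of the RefSeq gene table were measured, and 49 other P450 genes served for comparison.

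P450 enzymes are haem proteins that insert an oxygen atom into fatty acids, steroids and foreign compounds. Enzymes of the CYP4 type are best known, mainly from mammals and their kidneys, for hydroxylating the far end of fatty acid chains, and insect members have also been tied to the making of cuticular hydrocarbons and to insecticide tolerance. The microsomal enzymes receive electrons from a shared reductase, with cytochrome b5 as another donor. The tubule is a transporting and detoxifying epithelium, and which CYP4 genes its RNA holds bears on both roles.

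Total RNA of tubules and of whole flies, both from 7 day old adult Oregon R of mixed sexes, was hybridized to the Affymetrix Drosophila genome array, 5 arrays to each group. Tubules and flies of the same number (pairs 2 to 6) came from 1 culture, each sample was a pool of many animals, and the whole flies include their own tubules. Values are MAS 5.0 signal intensities in arbitrary units, scaled to the same trimmed mean on every array. Because probe sets differ in how well they hybridize, the signal of a gene was compared only with its own signal in the other group, as enrichment (tubule signal divided by fly signal in each pair, averaged over the 5 pairs, ± SD) and as a log2 fold change fitted with limma, called at an adjusted p under 0.05. In such bulk RNA, fewer cells of a type and less RNA per cell cannot be told apart, and the p-values measure the spread between these pools.

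Tubule arrays correlated with each other at Spearman coefficients of 0.907 to 0.926 across probe sets, fly arrays at 0.944 to 0.971, and tubule with fly arrays at 0.680 to 0.795. All 7 measured tubule markers of 9 listed were called higher in tubule. Markers of other tissues were present in the dissected tubules at varying levels: the summed signal of 31 midgut enzymes ran from 3100 to 39820 in the tubule arrays against 70800 to 91110 in the fly arrays, lowest in tubule arrays 4 and 6, and that of 13 accessory gland genes from 146.2 to 4699 against 10960 to 17540. None of these markers had a signal of 0, since the lowest value on any array was 0.1.

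The clan split evenly on the signals as deposited, but not after quantile normalization (12 genes higher, 7 lower). Of the 32 genes, 11 (34.4%) were called higher in tubule, 11 (34.4%) lower and 10 were not called. Over all 13966 probe sets, 53.1% were called, 16.8% higher and 36.3% lower, so the share of higher calls in the clan was above that of the array, while the share of lower calls was close to it. The median log2 fold change of the clan was -0.05, against -0.32 for all probe sets, with quartiles of -1.26 and 1.47 against -1.32 and 0.41. A change of at least 1 on the log2 scale in either direction was met by 21 genes (65.6%), and by 42.4% of all probe sets. The tubule and fly signals did not overlap in 10 genes that were higher in tubule and 8 that were lower, where 14.1% and 29.6% of all probe sets did so. Of these 10, 9 were called higher, and the tenth was Cyp313b1, not called, at signals of no more than 4.4. An enrichment of 2 or more together with a higher call was found for 10 genes of the clan and for 10.2% of all probe sets.

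**Figure D1:**
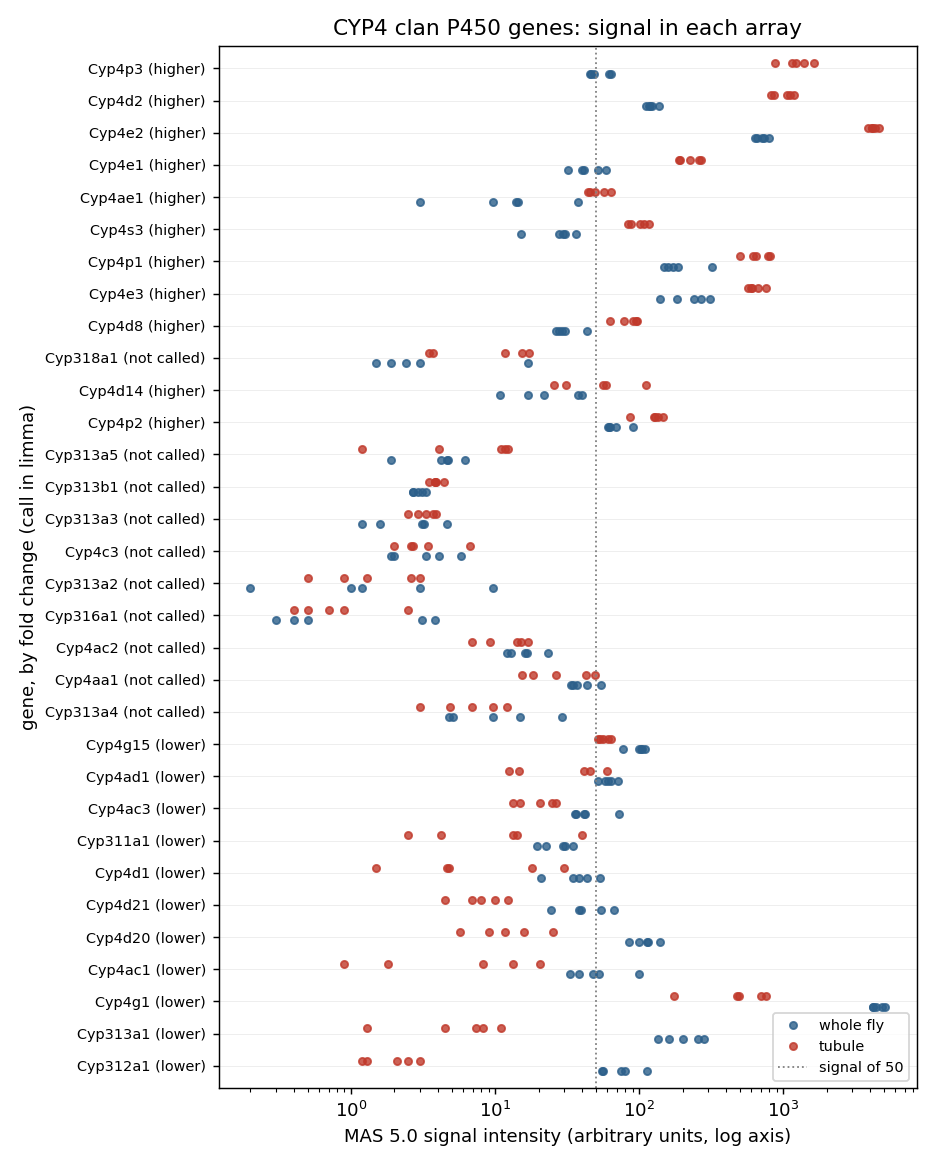
Signal intensity (log axis, arbitrary units) of each of the 32 CYP4 clan genes in the 5 tubule and 5 whole fly arrays, 1 point per array, sorted by fitted fold change; the dotted line marks a signal of 50. Genes called higher sit at the top, with Cyp4p3 between 870.4 and 1645.5 in tubule and between 45.7 and 63.2 in fly, genes called lower sit at the bottom, and the 10 that were not called lie at low signals in both groups.

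A mean of at least 50 was reached by 13 genes in tubule and by 13 in fly, and by 8 of them in both. Of the 18 that reached it in either group, 11 were called higher and 7 lower, but a gene that reaches it in 1 group alone was picked for a difference, and nothing is read from this count. Of all 7190 probe sets that passed the same filter, 26.9% were higher and 46.4% lower. The other 14 genes, with signals from 0.2 to 72.4, held the 10 that were not called and 4 that were called lower. By name, the 22 Cyp4 genes held all 11 higher calls and 8 lower ones, and the 10 Cyp311 to Cyp318 genes held 3 lower calls and 7 without a call. The split by name goes along with signal level, since 16 of these Cyp4 genes but only 2 of the Cyp311 to Cyp318 genes reached a group mean of 50.

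Cyp4p3 had the highest enrichment of the clan, 23.5 ± 3.23 (SD, n = 5). Its signals were 1383.5, 870.4, 1645.5, 1143.8 and 1233.9 in tubule arrays 2 to 6, and 62.0, 46.2, 63.2, 48.7 and 45.7 in the fly arrays of the same numbers. Every tubule array was at least 10-fold above every fly array. The log2 fold change was 4.54 (95% confidence interval 4.29 to 4.80, limma adjusted p = 6.2e-08), which ranked 58 among the 13966 probe sets.

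The other members of the Cyp4p family rose by less. Cyp4p1 read 620.2, 503.9, 808.3, 648.7 and 777.0 in tubule and 318.2, 172.5, 186.2, 148.9 and 157.9 in fly, an enrichment of 3.70 ± 1.23 (adjusted p = 1.1e-04, limma). The groups did not overlap, although fly array 2 stood well above the other fly arrays. Cyp4p2 read 134.8, 127.0, 128.3, 86.5 and 147.2 in tubule and 91.1, 68.7, 61.0, 62.5 and 61.7 in fly, an enrichment of 1.84 ± 0.420 (limma adjusted p = 0.0024), and here tubule array 5 fell below fly array 2. Cyp4p2, Cyp4p1 and Cyp4p3 lie next to each other in the genome, with no other protein-coding gene between them in the RefSeq order. The log2 ratio of tubule to fly was higher for Cyp4p3 than for Cyp4p2 in every pair, by 3.70 ± 0.30 (SD, n = 5), and higher than for Cyp4p1 by 2.74 ± 0.45. The exact sign-flip test gave p = 0.0625 (two-sided) for each, the smallest that 5 pairs allow, and 0.1136 after adjustment over the 20 neighbour comparisons made.

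The Cyp4e family was higher in tubule as a whole. Cyp4e2 read 4147.1, 4302.6, 4630.8, 3851.7 and 4145.1 in tubule and 790.4, 639.8, 658.7, 732.6 and 709.7 in fly. Both groups were tight, and its enrichment was 6.02 ± 0.826 (limma adjusted p = 4.5e-07). Cyp4e1 read 192.3, 268.3, 225.3, 188.9 and 260.2 in tubule against 32.0, 51.4, 58.8, 41.6 and 39.8 in fly, an enrichment of 5.23 ± 1.09 (adjusted p = 8e-06, limma). Cyp4e3, which has been linked to permethrin tolerance in the tubule, read 593.8, 606.9, 569.1, 755.5 and 670.7 in tubule and 311.4, 238.2, 139.6, 182.1 and 268.2 in fly. Its enrichment was 3.04 ± 1.01 with no overlap (limma adjusted p = 1.6e-04). Cyp4e2 and Cyp4e1 are adjacent, and their log2 ratios differed by 0.22 ± 0.44, with Cyp4e2 higher in 3 of 5 pairs (exact sign-flip p = 0.3125, two-sided, 0.3676 adjusted).

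The Cyp4d family went both ways, with 3 genes called higher and 3 lower. Cyp4d2 was the second most enriched of the clan by fold change, at 827.0, 1179.4, 1117.6, 859.0 and 1058.4 in tubule against 123.2, 119.7, 137.4, 111.0 and 117.2 in fly. The enrichment was 8.29 ± 1.21 (limma adjusted p = 3.7e-07) and the fly arrays differed by little. Cyp4d8 read 79.0, 95.6, 62.6, 96.1 and 90.9 in tubule and 28.9, 43.1, 30.4, 27.8 and 26.3 in fly, an enrichment of 2.79 ± 0.662 without overlap (adjusted p = 3.7e-04, limma).

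Cyp4d14 was the least certain of the higher calls. It read 58.8, 112.3, 31.2, 55.9 and 25.6 in tubule and 21.8, 39.9, 37.8, 16.8 and 10.8 in fly, so that the groups overlapped, and in pair 4 the fly signal was the higher. The enrichment was 2.41 ± 0.949 (limma adjusted p = 0.017). The call was lost without the pair block (adjusted p = 0.051) and without pair 3 or pair 5 (0.065 and 0.059).

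On the lower side, Cyp4d20 was near the low end of the scale in tubule, at 5.7, 15.8, 25.2, 9.1 and 11.7, and at 139.8, 112.9, 100.1, 85.4 and 114.9 in fly. The ratio of tubule to fly was 0.128 ± 0.0778 (limma adjusted p = 1.4e-04). Cyp4d21, also known as sxe1 and described as a male-biased gene of the fat body, was lower at weak signals, 4.5 to 12.3 in tubule against 24.5 to 67.0 in fly (ratio 0.223 ± 0.162, limma adjusted p = 0.0010). Cyp4d1 was lower at 1.5 to 29.9 in tubule against 20.9 to 53.0 in fly (ratio 0.262 ± 0.216, limma adjusted p = 0.0035), with overlap.

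Cyp4d1, Cyp4d14, Cyp4d2 and Cyp4ae1 lie in this order within a short stretch of the genome, with 2 other protein-coding genes between the first pair, so this stretch held 1 gene called lower beside 3 called higher. The log2 ratio was higher for Cyp4d2 and for Cyp4d14 than for Cyp4d1 in all 5 pairs. The size of these differences is not fixed, since Cyp4d1 read 1.5, 4.6 and 4.8 in 3 tubule arrays and its log2 fold change of -2.36 was -1.03 after 16 had been added to all signals, and -0.02, without a call, when values under 50 were raised to 50. The log2 ratio of Cyp4d2 exceeded that of Cyp4d14 by 1.91 ± 0.83, again in all 5 pairs. Each of these 3 differences had the smallest p that the exact sign-flip test allows here, 0.0625 (two-sided, 0.1136 adjusted).

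Cyp4ae1 rose from a low and scattered fly signal. It read 45.8, 63.3, 49.3, 44.0 and 57.2 in tubule and 37.4, 14.5, 14.0, 9.6 and 3.0 in fly. The tubule arrays were close to each other, while the fly arrays spanned from 3.0 to 37.4, and the ratio within pairs ran from 1.22 in pair 2 to 19.1 in pair 6. The enrichment of 6.55 ± 7.12 is therefore poorly fixed, and the log2 fold change was 2.14 (95% confidence interval 0.99 to 3.28, limma adjusted p = 0.0069). Cyp4s3 read 108.0, 101.5, 83.6, 116.0 and 88.3 in tubule and 36.6, 15.1, 29.4, 30.5 and 27.6 in fly, an enrichment of 3.90 ± 1.62 without overlap (adjusted p = 2e-04, limma).

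**Figure D2:**
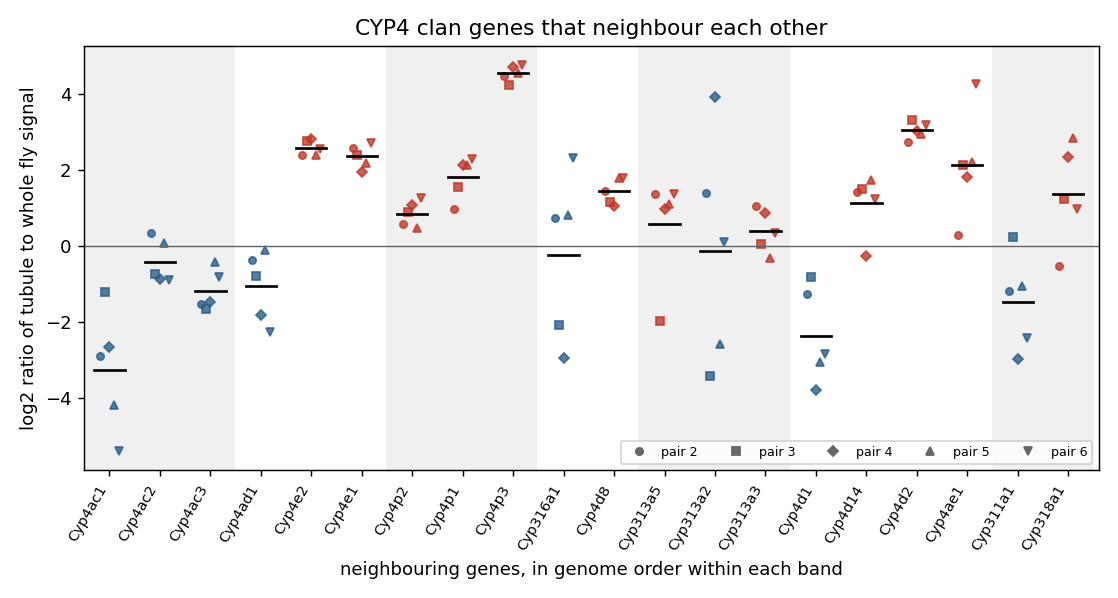
Log2 ratio of tubule to whole fly signal within each of the 5 pairs (marker shape) for the 20 CYP4 clan genes that lie beside another member, banded by neighbour group in genome order; bars are means, and red and blue mark genes with a mean above and below 0. Cyp4ad1 lies below 0 in every pair beside Cyp4e2 and Cyp4e1, which lie above it, and Cyp4d1 lies below 0 beside Cyp4d14, Cyp4d2 and Cyp4ae1, whose means lie above it.

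Cyp4g1 was lower in tubule by a wide margin. Its enzyme, made in the oenocytes beneath the cuticle, removes the terminal carbon of fatty aldehydes to form cuticular hydrocarbons. It read 4213.0, 5058.8, 4875.5, 4198.6 and 4414.6 in fly and 698.1, 755.0, 493.0, 473.6 and 175.2 in tubule, a ratio of 0.114 ± 0.0490 (limma adjusted p = 2.6e-05). The fly arrays varied little, whereas the highest tubule array was 4.31 times the lowest, tubule array 6. Its paralogue Cyp4g15, described in the nervous system, differed much less. It read 56.1, 61.0, 64.0, 51.5 and 53.3 in tubule and 110.2, 77.7, 102.7, 104.3 and 99.6 in fly, a ratio of 0.589 ± 0.120 (limma adjusted p = 0.0034), without overlap.

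Most of the genes listed for the hydrocarbon pathway, in which Cyp4g1 acts, were lower in tubule. Of 11 measured of 12 listed, 9 (81.8%) were called lower and none higher, with a median log2 fold change of -2.65. Over all probe sets, 36.3% were lower and 16.8% higher. Lower calls were also common among markers of other tissues, at 77.4% for midgut and 100% for accessory gland, testis and ovary. They made up 80% of the fat body and oenocyte markers, a list that shares genes such as Desat1 with this one. The depletion is therefore not particular to this list. The ratio of tubule to fly was 0.160 ± 0.0414 for the fatty acid synthase FASN1 (limma adjusted p = 2.2e-06), 0.279 ± 0.0381 for the acetyl-CoA carboxylase ACC (4e-06), 0.599 ± 0.101 for the desaturase Desat1 (9.4e-04) and 0.0865 ± 0.0300 for the desaturase Fad2, also known as desatF (2.1e-06).

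Cyp312a1 and Cyp313a1 had the lowest fold changes of the clan on the scale of the unchanged signals. Cyp312a1 read 2.5, 1.2, 1.3, 2.1 and 3.0 in tubule and 54.8, 79.9, 112.8, 55.9 and 75.0 in fly, a ratio of 0.0300 ± 0.0156 and a log2 fold change of -5.27 (limma adjusted p = 2.2e-05). Cyp313a1 read 8.2, 10.9, 7.4, 4.5 and 1.3 in tubule and 161.0, 135.1, 256.6, 200.2 and 280.0 in fly, a ratio of 0.0375 ± 0.0293 and a log2 fold change of -5.25 (limma adjusted p = 8.4e-05). In both, the tubule signals lay at the low end of the scale, where the size of a ratio rests on a few units of signal, and no array of the groups overlapped. With 16 added to each signal the log2 fold changes were -2.31 for Cyp312a1, -3.28 for Cyp313a1 and -3.24 for Cyp4g1, and with signals under 50 set to 50 they were -0.55, -1.99 and -3.29, so the order of these genes changed with the treatment of low signals. The remaining 5 genes of the Cyp313 family were not called, with log2 fold changes from -0.62 to 0.57 and group means no higher than 12.7.

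The neighbouring Cyp4ac genes gave 2 lower calls of 3. Cyp4ac1 read 13.3, 20.6, 8.3, 1.8 and 0.9 in tubule and 99.7, 47.9, 52.4, 33.0 and 37.9 in fly, with no overlap, a ratio of 0.160 ± 0.161 and a log2 fold change of -3.27 (95% confidence interval -4.58 to -1.97, limma adjusted p = 0.0015). Cyp4ac3 read 13.3 to 26.5 in tubule and 35.8 to 72.4 in fly (ratio 0.465 ± 0.183, limma adjusted p = 0.0058). Cyp4ac2, which lies between them, was not called, at 6.9 to 17.0 against 12.0 to 23.4 (limma adjusted p = 0.33). The log2 ratio of Cyp4ac2 exceeded that of Cyp4ac1 in 5 of 5 pairs (exact sign-flip p = 0.0625, two-sided, 0.1136 adjusted) and that of Cyp4ac3 in 4 of 5 (exact p = 0.125, 0.1786 adjusted). At these signals the size of the differences is not fixed: with 16 added to each signal the log2 fold changes were -1.48 for Cyp4ac1 and -0.18 for Cyp4ac2, and with signals under 50 set to 50 that of Cyp4ac1 was -0.21, without a call.

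Cyp4ad1 was called lower although it sits beside Cyp4e2 and Cyp4e1. It read 45.2, 41.5, 14.6, 59.8 and 12.5 in tubule and 58.3, 71.3, 51.4, 64.2 and 60.4 in fly, a ratio of 0.556 ± 0.311 (limma adjusted p = 0.029). The groups overlapped at tubule array 5, and the call was lost without pair 3, 4 or 6 (adjusted p of 0.059, 0.092 and 0.084). The log2 ratio of Cyp4e2 exceeded that of Cyp4ad1 in every pair, by 3.65 ± 1.06, and that of Cyp4e1 did so by 3.43 ± 1.01 (exact sign-flip p = 0.0625 for each, two-sided, 0.1136 adjusted). Cyp311a1, described in the anterior midgut of the larva, read 13.4, 40.3, 2.5, 14.1 and 4.2 in tubule and 30.4, 34.5, 19.6, 29.4 and 22.4 in fly, a log2 fold change of -1.48 with overlap (limma adjusted p = 0.030). That call was lost without the pair block (0.063) and without pair 2, 4, 5 or 6 (0.054, 0.087, 0.054 and 0.091).

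Cyp4d14, Cyp4ad1, Cyp311a1 and Cyp4d1 were the 4 members (12.5%) whose signal lay more than 0.5 below the tubule mean, on the log2 scale, in both array 4 and array 6, as 4.07% of all probe sets did. Their deviations were -0.66 and -0.95 for Cyp4d14, -0.99 and -1.21 for Cyp4ad1, -1.94 and -1.19 for Cyp311a1, and -2.24 and -0.56 for Cyp4d1. These are the tubule arrays with the lowest midgut signals: the median deviation of the 31 midgut enzymes was 1.23, 1.43, -1.93, 0.65 and -1.15 in arrays 2 to 6. In array 5, where the midgut median was 0.65, Cyp4d14, Cyp4ad1 and Cyp311a1 deviated by 0.18, 1.04 and 0.56, but Cyp4d1 by -0.62. Cyp4d1 thus did not follow the midgut median in that array. The part of midgut RNA in the signals of these 4 genes was not tested. In pairs 4 and 6 alone, the log2 fold change of Cyp4d14 went from 1.13 to 0.48 and its call was lost (limma adjusted p = 0.54). The 3 genes called lower stayed called there and moved further down, Cyp4ad1 from -1.07 to -2.04 (limma adjusted p = 0.014), Cyp311a1 from -1.48 to -2.69 (0.021) and Cyp4d1 from -2.36 to -3.33 (0.010). All 4 genes were picked for low tubule signals in arrays 4 and 6. Lower fold changes in these pairs follow largely from that choice, and nothing is read from them. Among the 3 genes of the largest fold change, the deviations in tubule arrays 2 to 6 were 0.17, -0.50, 0.42, -0.10 and 0.01 for Cyp4p3, and they ran from -0.27 to 0.24 for Cyp4d2 and from -0.13 to 0.14 for Cyp4e2.

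**Figure D3:**
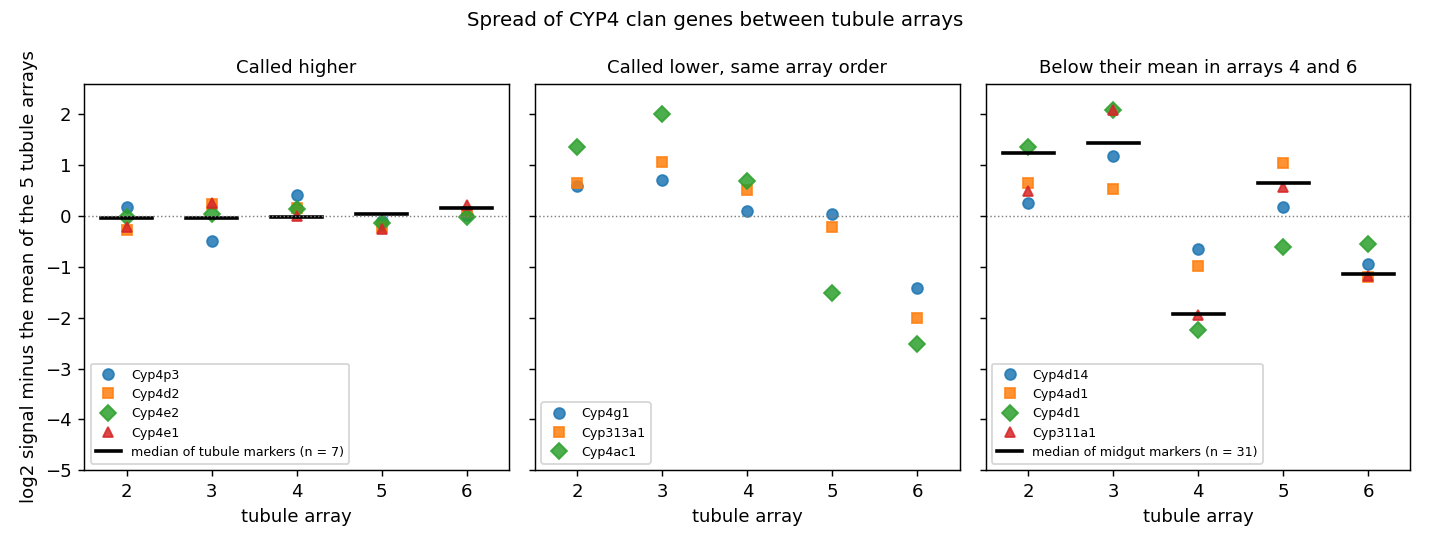
Log2 signal of single CYP4 clan genes in tubule arrays 2 to 6, as the deviation from each gene's mean over the 5 arrays, with black bars for the median deviation of the 7 tubule markers (left) and the 31 midgut enzymes (right). Left, 4 genes called higher stay between -0.50 and 0.42. In the middle, Cyp4g1, Cyp313a1 and Cyp4ac1 are lowest in array 6. Right, 4 genes lie below 0 in arrays 4 and 6, where the median of the midgut enzymes lies at -1.93 and -1.15. Cyp4d1 also lies below 0 in array 5, where that median lies at 0.65.

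The 10 genes that were not called had group means of at most 40.6 and log2 fold changes from -0.62 to 1.37. They were Cyp4aa1, Cyp4ac2, Cyp4c3, Cyp313a2, Cyp313a3, Cyp313a4, Cyp313a5, Cyp313b1, Cyp316a1 and Cyp318a1. At such signals the arrays leave wide intervals, as for Cyp4aa1, with a log2 fold change of -0.54 and a 95% confidence interval of -1.33 to 0.26. Cyp318a1 came nearest to a call, at 11.8, 3.5, 15.3, 17.2 and 3.7 in tubule and 16.9, 1.5, 3.0, 2.4 and 1.9 in fly (log2 fold change 1.37, limma adjusted p = 0.062). Without pair 2, whose fly array stood apart, it passed the threshold (log2 fold change 1.84, adjusted p = 0.019). Its other probe set read 1.5 to 2.4 in tubule and 1.2 to 3.4 in fly, with a log2 fold change of -0.34 that was not called, so the probe sets of this gene disagreed in direction.

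The other P450 genes leaned further to the tubule than the CYP4 clan. Of 49, 24 (49%) were called higher and 10 (20.4%) lower, with a median log2 fold change of 0.81. The Cyp6 genes, a family known for work on foreign compounds, had 15 of 23 higher and 3 lower with a median of 1.46. The Cyp12 genes, which are mitochondrial, had 5 of 6 higher and none lower with a median of 1.26. Of the 5 Cyp9 genes, 2 were higher and 1 lower, with a median of 0.35. Cyp6 and Cyp12 genes thus held most of the 24 higher calls, and outside them lower calls outnumbered higher ones. These are counts beside each other, and the difference between the families was not tested. In whole fly array 2 the other P450 genes lay above their fly mean by a median of 0.33 on the log2 scale and the CYP4 clan genes by 0.17, where all probe sets lay at -0.07. Other lists shifted in that array as well. Tubule markers lay at 0.22, ovary markers at -1.01, accessory gland markers at -0.44 and testis markers at -0.43. The cause of these shifts was not tested. The highest fly signal was in array 2 for 13 of the 32 members (40.6%), among them Cyp4p1, Cyp4ae1 and Cyp4ac1, and for 20.9% of all probe sets.

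**Figure D4:**
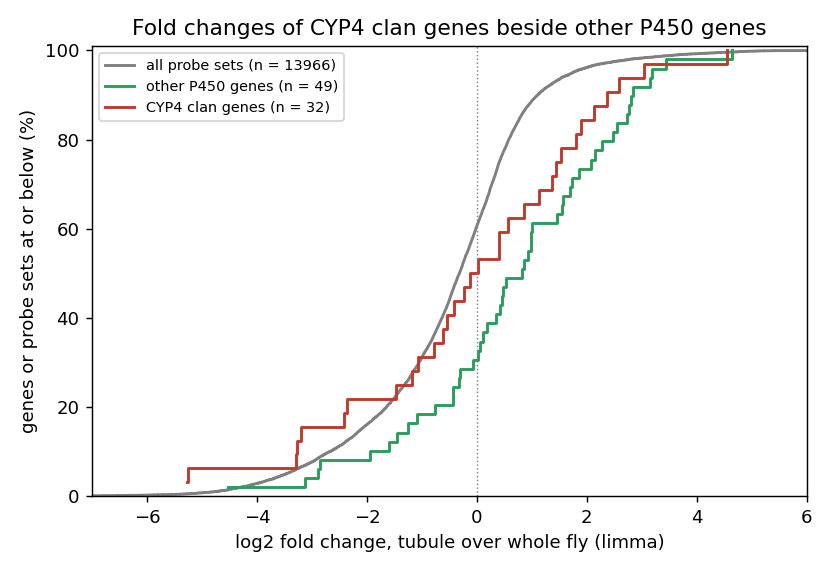
Cumulative share (%) of genes or probe sets at or below each log2 fold change of tubule over whole fly, for the 32 CYP4 clan genes, 49 other P450 genes and all 13966 probe sets. At strongly negative fold changes the CYP4 clan curve lies above that of all probe sets, and near the lower quartiles (-1.26 and -1.32) it lies close to it. On the positive side it lies to the right, with medians of -0.05 and -0.32, while the other P450 genes have a median of 0.81.

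The partners that a P450 needs were measured as well. Cyt-b5, the electron donor, was higher in tubule at an enrichment of 1.40 ± 0.204 (limma adjusted p = 0.0055), with means of 1210 ± 131 in tubule and 875 ± 134 in fly. Of 6 electron transfer genes measured of 8 listed, 3 (50%) were called higher and 2 (33.3%) lower, beside 16.8% and 36.3% of all probe sets. Fdx2, a ferredoxin of the mitochondrial type, was enriched 2.28 ± 0.376 (limma adjusted p = 6.3e-05) and CG3566, annotated as cytochrome b5-like, 3.33 ± 1.10 (1.2e-04), while the cytochrome b5-related Cyt-b5-r had a ratio of 0.155 ± 0.0404 (4.7e-06). Cpr, the reductase of the microsomal P450 enzymes, was not analysed here.

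Every P450 carries a haem group. Of 7 haem synthesis genes measured of 9 listed, 2 (28.6%) were called lower and none higher, with a median log2 fold change of -0.22, beside 36.3% and 16.8% of all probe sets and their median of -0.32. Alas, the first enzyme of the pathway, had a ratio of 0.547 ± 0.122 (limma adjusted p = 6.1e-04) and Coprox, coproporphyrinogen oxidase, 0.600 ± 0.193 (0.0046). FeCH, which inserts the iron, and Urod were not called, at 1.19 ± 0.134 and 0.867 ± 0.109 (limma adjusted p of 0.12 and 0.17).

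Fatty acid oxidation genes, whose enzymes break down fatty acids that CYP4 enzymes can also take as substrates, were more often higher than lower. Of 19 measured of 24 listed, 9 (47.4%) were called higher and 1 (5.26%) lower, beside 16.8% and 36.3% of all probe sets. The median log2 fold change was 0.38, and the summed signal was 7896 to 8914 in tubule against 4673 to 5568 in fly. Among the 4 with the largest signals, the hydroxyacyl-CoA dehydrogenase scu was enriched 2.06 ± 0.294 (limma adjusted p = 7.4e-05), the electron transfer flavoprotein subunit wal 2.82 ± 0.589 (3.1e-05), the carnitine palmitoyltransferase whd 1.61 ± 0.326 (0.0024) and the peroxisomal enzyme Mfe2 1.72 ± 0.327 (9.4e-04).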

How the data were processed

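RNA of adult tubules and whole flies was measured on 10 arrays. The authors made the deposited signal intensities with MAS 5.0: signals were corrected for background, combined robustly from perfect match and mismatch probes, and scaled by 1 factor per array, which leaves the lowest values imprecise and ties every ratio to the mean of the array. The median signal was 25.5 to 28.2 in tubule arrays and 41.7 to 45.9 in fly arrays. The intensities came without detection calls, and the number of arrays limits the precision.

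Without the 44 controls of the array, 13966 of 14010 probe sets entered the tests. The platform annotation gives 12443 of these 1 gene, 327 several and 1196 none, and 12394 were matched to RefSeq symbols. The linear model on log2 signals used limma 3.58.1 (R 4.3.3), with pair number as a blocking factor and an intensity trend in eBayes, and Benjamini-Hochberg adjustment ran over all probe sets. The fit was tested on simulated data. The pairing comes from the study's methods. Within pairs, the deviations from the group means correlated at 0.003, 0.085, -0.089, -0.006 and 0.091, below the highest correlation with a fly array of another number (0.111 to 0.167). Neighbouring genes have at most 3 protein-coding genes between them, and their log2 ratios were compared over the 5 pairs by an exact two-sided sign-flip test. Every member is named, those with a group mean of at least 50 with all signals; other lists give up to 4 genes by mean signal, with Cyt-b5. The members and lists were chosen with earlier results of these data known.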

Additional observations from a re-analysis of the deposited data

Results flagged for a closer look

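Of the 64 groups of 5 arrays (32 genes in tubule and in whole fly), 4 (6.25%) held 1 array that stood apart from the rest by Dixon's test on the log2 signals, where chance gives about 1 in 20. Cyp318a1 read 16.9 in whole fly array 2, above 1.5 to 3.0 in the others. Cyp4ac3 read 72.4 in whole fly array 2, above 35.8 to 42.2. Cyp4g15 read 77.7 in whole fly array 3, below 99.6 to 110.2. Cyp4p2 read 86.5 in tubule array 5, below 127.0 to 147.2.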

How the results depend on the processing

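Of 429 fold changes over the 32 genes and their alternative settings, 375 kept direction and call. A further 36 lost the call, 5 gained one and 13 turned direction, and 11 of the 22 called genes kept their call throughout. The t-test, the fit without the pair block and the filter on mean signal leave the fold changes unchanged, so direction could not turn in them. With the floor of 50, genes below it on every array have no direction left and count as not turned. Without the replicate block for the pairing, 10 genes were higher and 10 lower, with 2491 and 5247 of all probe sets. Quantile normalization moved the median of all probe sets from -0.32 to 0.18 on the log2 scale and holding RpL32 constant moved it to -0.66. The share of higher among all calls was then 54.6% and 18.4%, against 31.6%. With quantile normalization the clan had 12 genes higher, 7 lower and a median of 0.53, and 4148 probe sets were higher. Cyp4ac2 (0.53), Cyp4aa1 (0.20), Cyp313a4 (0.18) and Cyp313a2 (0.17), not called in any setting, turned positive there. With RpL32 constant 9 genes were higher and 11 lower, the median was -0.39, 1451 probe sets were higher and Cyp4c3 was at -0.32. With signals under 50 set to 50, 9 genes were higher and 4 lower, with 1684 and 2453 of all probe sets. With probe sets of a mean of at least 50 alone, 4 genes and 2642 probe sets were lower and the median over the 13 genes left was 1.54. That filter also passes genes that are high in 1 group alone, so nothing is read from this median. Over all 6125 probe sets left, the median was -0.22. In pairs 4 and 6 alone, chosen after seeing the data, 10 genes were higher and 9 lower, the median was 0.22, Cyp313a2 was at 2.01 and Cyp4c3 at -0.041. Leaving out 1 pair at a time gave 10 to 12 genes higher and 9 to 10 lower, a median of -0.18 to 0.30, and 1962 to 2222 probe sets higher and 4457 to 4877 lower. Cyp316a1 then ran from -0.87 to 0.45, Cyp313a2 from -1.13 to 0.70 and Cyp4c3 from -0.088 to 0.098. The methods' t-test, run here on log2 MAS 5.0 signals and without the study's added filters on fold change and difference, called 11 genes higher and 8 lower at their threshold, and 11 and 9 after Benjamini-Hochberg. Of the 11 higher, 10 were among the higher calls of the main fit each time. Cyp313b1, at signals of no more than 4.4, was gained and Cyp4d14 was lost. The median of the clan thus has no settled sign, and the cause of these changes was not tested. Signals near background limit the 14 genes with both means under 50. Calls of genes reaching a mean of 50 were also lost for Cyp4g15 with quantile normalization (adjusted p = 0.16) and in pairs 4 and 6 alone (0.068), Cyp4p2 with RpL32 constant (0.0502), Cyp4ad1 with quantile normalization (0.30), Cyp4d14 with RpL32 constant (0.080), these 2 genes in the t-test as well (0.086 and 0.10 after adjustment), and, with the floor of 50, Cyp4ae1 (0.34), Cyp4ac1 (0.59), Cyp312a1 (0.085), Cyp4ad1 (0.085) and Cyp4d14 (0.39).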

Other observations

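Cyp4g1, Cyp313a1 and Cyp4ac1, all lower in tubule, shared the order of their tubule arrays: array 3 was highest, then 2, 4, 5 and 6. This was noticed after the values were seen and has no test. Array 6 was also the lowest tubule array for accessory gland and testis markers, with median deviations of -2.73 and -2.01 on the log2 scale. That of fat body and oenocyte markers was -0.14 there. A part of RNA from other tissues in the signals of these genes was not tested. Of all probe sets, 85 (0.609%) had that order, 27 of them with at least a 4-fold range, and 3 of these 27 were the genes named. The 27 stand among 3622 probe sets, 13 of them members, with such a range. Only Cyp4g1 and Cyp313a1 among the 27 had a mean fly signal of at least 200. That limit was chosen with the values known, and nothing is read from this count.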
